A study of Arabidopsis thaliana with 4 samples.

Results

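The lipid droplet-associated proteins of Arabidopsis thaliana form a family of 3 genes, AT2G47780, AT1G67360 and AT3G05500, related to the small rubber particle protein of the rubber tree Hevea brasiliensis. The family was taken by locus, as the probe sets naming 1 of these genes alone. Each locus had 1 such probe set, so the family is 3 of the 13355 genes named in this way, and all 3 passed the filter on low signals. The family was chosen with signals from this same comparison in view, in which AT2G47780 had stood out as much lower after induction, so it was in part selected on the values given below. The differences of the 3 loci are therefore described without a test.

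Lipid droplets are stores of oil enclosed by a single layer of phospholipids and by coat proteins. In seeds the coat is made mainly of oleosins, which sit deep in the droplet through a long water-repelling hairpin. In leaves and other vegetative tissue, where oleosins are scarce, lipid droplet-associated proteins without such a hairpin bind the droplet surface instead. LEAFY COTYLEDON1 (LEC1) is a subunit of the NF-Y transcription factor complex that acts in embryo development and seed filling.

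RNA came from whole seedlings of the Columbia ecotype, 4 days old, all carrying pER8-LEC1, a transgene that expresses LEC1 when estradiol is supplied. Control seedlings grew for 4 days on medium with 0.1% DMSO, and LEC1 induced seedlings grew for 4 days on medium with 10 µM estradiol. All grew with 3% sucrose at 22 °C. No DMSO content is recorded for the estradiol medium, so the part of DMSO in the differences was not tested. Each group had 2 biological replicates of about 100 mg of tissue, each hybridized to an ATH1 array, so 4 arrays were compared. Seedlings without the transgene on estradiol are not among these arrays, so a response to LEC1 and a response to estradiol itself cannot be told apart, and the labels do not say how many transgenic lines were used.

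The arrays differed in brightness, with median signals as deposited of 20 and 15.5 in controls and 39.4 and 22.3 after induction. Signals below are quantile normalized, in array units, unless they are called deposited. The level of LEC1 is not analysed here. Of the tissue markers, 2 of 15 genes for leaf and cotyledon photosynthesis and 2 of 10 for root were measured, each above the dim limit on all 4 arrays, and 0 of 7 for vasculature. The tissue markers not measured had no probe set naming them alone, so their signals are unknown here and need not be low. The dim limit is a signal of 13.9, the 40th percentile. The photosynthesis markers summed to 3550 and 5060 in controls and 1595 and 2866 after induction, and the root markers to 201.2 and 390.6 against 47.3 and 284.8. Most of the photosynthesis sum was RCA, and the groups of the other marker overlapped, as did those of 1 root marker. No photosynthesis or root marker passed the limma threshold given below. Of 11 markers of embryo and dry seed 4 were measured, and these 4 rose in limma, described below, against 2.83% of all probe sets. All 4 had a control array under the dim limit and 3 passed the filter on low signals through induced arrays alone, so nothing is read from that count, which was 1 of 4 in the methods' t-test, the test the submitters name, at a false discovery rate of 0.2. Their summed signal was 26.3 and 15.0 in controls and 11831 and 9167 after induction, and the storage protein gene PAP85 was at 0.346 and 0.372 in controls. The actin 3' to 5' signal ratio was 3.28 and 3.01 in controls and 1.96 and 1.94 after induction. That of GAPDH was 0.773 and 0.890 against 0.932 and 0.911, and an older actin probe pair gave 21.8 and 25.1 against 21.6 and 20.7. The part of these markers and of RNA quality in the differences below was not tested. In whole seedlings, fewer cells of a type and less RNA per cell cannot be told apart.

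The 3 relatives did not move together. AT2G47780 was 15.8-fold lower in LEC1 induced seedlings, while AT3G05500 was 3.30-fold higher and AT1G67360 2.08-fold higher. In limma, a linear model fit across all probe sets, 5.74% of the 14433 probe sets tested passed an adjusted p of 0.05, 2.83% as rises and 2.91% as falls. Since this comparison was used to choose the family, no call is given for its members.

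AT2G47780 was far above the dim limit in control seedlings and much dimmer in induced ones. Control arrays gave signals of 1501 and 905.4, against 48.9 and 110.8 after induction. The groups did not overlap, and the brighter induced array was still 8.17-fold below the dimmer control array. Deposited signals did not overlap either, with 1783 and 730.6 in controls and 84.1 and 100.3 after induction. On the log2 scale its mean was 10.19 ± 0.52 (SD, n = 2) in controls and 6.20 ± 0.83 (SD, n = 2) in induced seedlings, a difference of -3.98 ± 0.48 SE. Each SE given here is from the limma fit, which draws the variance of a probe set towards a trend over all probe sets. It therefore does not follow from the SDs, and for AT2G47780 it is smaller than its own 4 arrays alone would give. The induced signals stayed above the dim limit. That limit is a percentile of all signals and no detection calls were used, so whether the transcript was still present cannot be told from it. Of the 14433 probe sets, 15 had a change at least this low, AT2G47780 included. Its replicates were not close, differing by 0.73 in controls and by 1.18 in induced seedlings on the log2 scale. The median gap between replicates over all probe sets was 0.37 in controls and 0.45 in induced seedlings. Its difference was -3.51 without control replicate 1 and -4.26 without control replicate 2. Since this difference helped to choose the family, nothing is read from its size beside the replicate gaps.

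AT3G05500 moved the other way and had the closest replicates of the family. Its signal was 930.4 and 668.9 in controls and 2386 and 2835 after induction. Both induced arrays lay above both control arrays, by 2.56-fold between the nearest pair. Deposited signals, at 1084 and 525 against 2773 and 2225, were also apart. The mean log2 signal was 9.62 ± 0.34 (SD, n = 2) in controls and 11.35 ± 0.18 (SD, n = 2) in induced seedlings, a difference of 1.72 ± 0.26 SE. Of all probe sets tested, 714 were higher by at least this much, or 4.95%. The size depended on scaling, at 0.97 when arrays were only centred on their medians, where all probe sets had a median of -0.14. Without normalization it was 1.72, against a median of 0.62 over all probe sets, which leaves 1.10. It was 1.93 without control replicate 1 and 1.44 without control replicate 2.

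AT1G67360 differed least. Its signal was 525.9 and 241.9 in controls and 828.2 and 662.7 after induction. The normalized groups were separated by 1.26-fold between the nearest arrays, while the deposited signals overlapped, at 589.2 and 177.4 against 1099 and 555.3. The log2 mean was 8.48 ± 0.79 (SD, n = 2) in controls and 9.53 ± 0.23 (SD, n = 2) in induced seedlings, a difference of 1.05 ± 0.42 SE. The control replicates alone differed by 1.12 on that scale, which is more than the difference between the groups. Without control replicate 2, the dimmer control, the difference was 0.49. All 3 loci had groups that did not overlap after normalization, as did 58.3% of all probe sets, and 2 of the 3 had groups apart in the deposited signals, as did 57.6%.

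**Figure D1:**
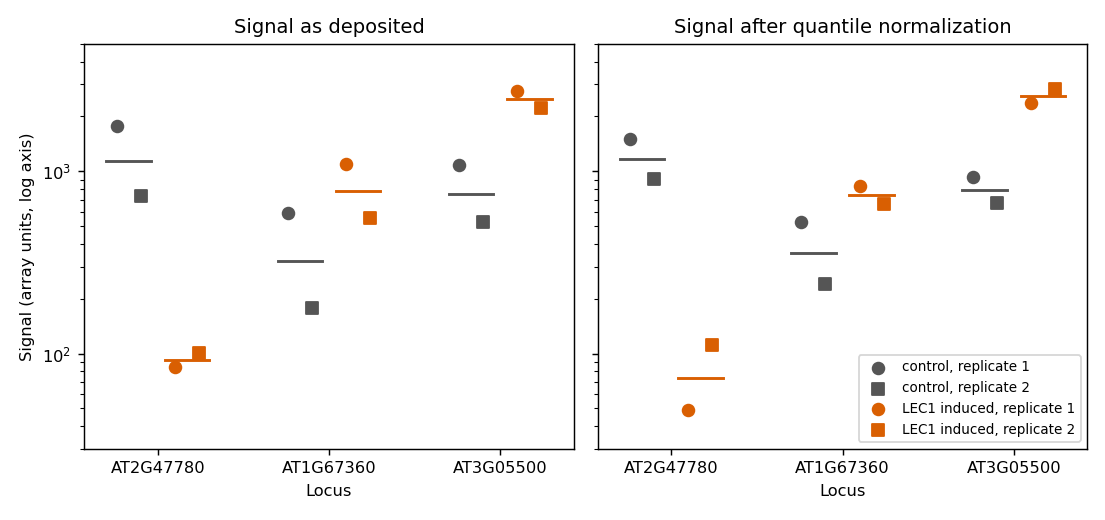
Signal of the 3 loci on each array, as deposited (left) and after quantile normalization (right), on a log axis. Each point is 1 array, grey for control and orange for LEC1 induced, with a circle for replicate 1 and a square for replicate 2, and each line is the geometric mean of 2 arrays. After normalization AT2G47780 is at 1501 and 905.4 in controls and at 48.9 and 110.8 in induced seedlings, AT3G05500 is higher on both induced arrays, and the deposited control and induced signals of AT1G67360 overlap.

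The plot of all changes places the loci among the other probe sets. AT2G47780 lay far out on the lower side, AT3G05500 on the upper shoulder, and AT1G67360 closer to the bulk, with 12.1% of probe sets higher by at least as much.

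**Figure D2:**
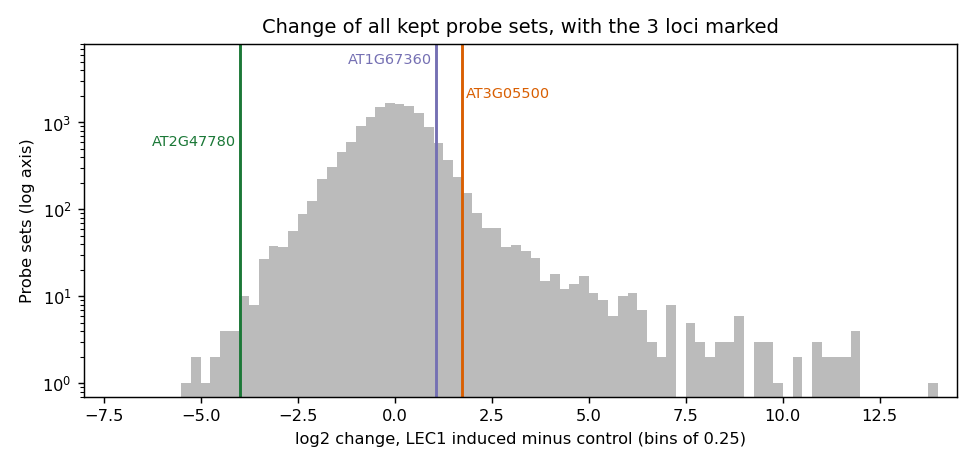
Number of probe sets (log axis) by log2 change, LEC1 induced minus control, for the 14433 probe sets tested in bins of 0.25, with a vertical line for each of the 3 loci. AT2G47780 lies at -3.98, with 15 probe sets at least as low, AT1G67360 at 1.05 and AT3G05500 at 1.72.

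The unequal change of the relatives was also read from ratios of 2 probe sets on 1 array, in which a brightness factor shared by all probe sets cancels. A difference between arrays that varies with the signal does not cancel. In the deposited signals, AT3G05500 relative to AT2G47780 shifted by 5.35 on the log2 scale between the groups, or 40.9-fold. Taken from the mean of the controls, this ratio was -0.12 and 0.12 for the control arrays, against 5.64 and 5.07 after induction. AT1G67360 relative to AT2G47780 shifted by 4.91, from -0.22 and 0.22 in controls to 5.53 and 4.29 after induction. Both ratios were thus far apart between the groups. After quantile normalization these shifts were 5.71 for AT3G05500 and 5.04 for AT1G67360, each relative to AT2G47780. AT3G05500 relative to AT1G67360 shifted by 0.45, and its deposited values overlapped, at -0.34 and 0.34 in controls and 0.11 and 0.78 after induction. After quantile normalization that shift was 0.67, with -0.32 and 0.32 in controls and 0.38 and 0.95 after induction, which did not overlap. AT2G47780 thus parted from each relative on both induced arrays, while whether the other two parted depended on the scaling. These differences between loci come from the values that chose the family and were not tested.

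**Figure D3:**
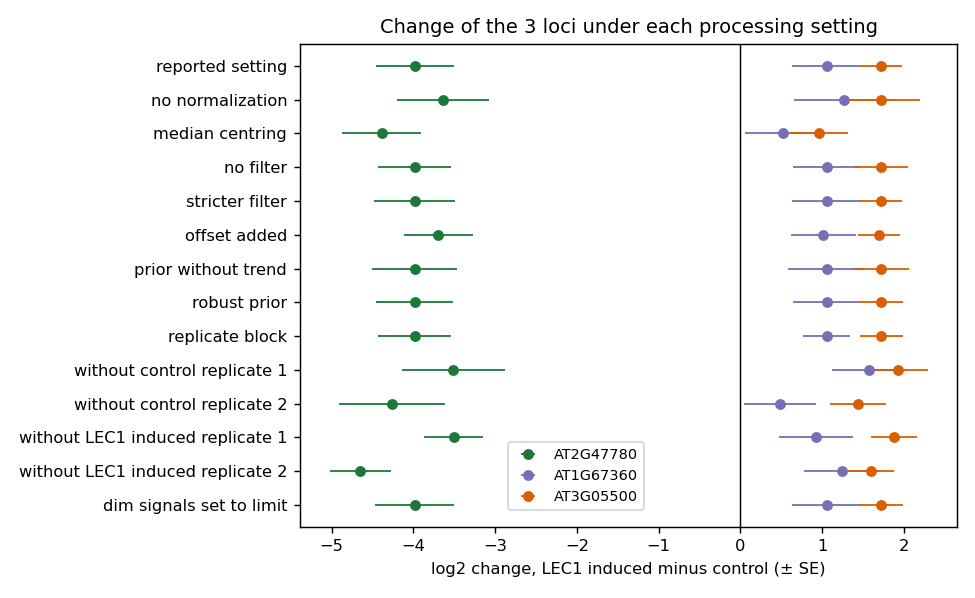
log2 change, LEC1 induced minus control, of each of the 3 loci under the reported setting and 13 alternatives, with bars of ± 1 SE. AT2G47780 stays between -4.65 and -3.51, AT3G05500 between 0.97 and 1.93, and AT1G67360 between 0.49 and 1.57, so each locus kept its sign in these settings.

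Genes for the coat proteins of seed lipid droplets rose in the same seedlings. The list of these coat genes held 14 loci, of which 5 were measured, and these 5 rose, with a median log2 change of 6.84, or 6.46 with signals under the dim limit set to it. The median over all probe sets tested was -7.93e-05, and 2.83% of them rose. Of the 5, 4 had a control array under the dim limit and 2, AT3G01570 and AT2G25890, passed the filter through induced arrays alone. Nothing is therefore read from this count and median, or from the p-values of these 2 genes. The methods' t-test called 2 of the 5. AT3G01570, listed as an oleosin, had signals of 12.8 and 11.7 in controls and 5569 and 5735 after induction, at least 407-fold higher (limma adjusted p = 0.000107). OLEO3 (AT5G51210), an oleosin, was at 35.5 and 44.6 in controls and at 5209 and 5359 after induction, 133-fold higher (limma adjusted p = 0.000119). These oleosin transcripts rose in the same seedlings in which the transcript of AT2G47780 was lower and those of AT3G05500 and AT1G67360 were higher.

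The remaining coat genes rose from low levels too. AT1G65090, listed as a seed lipid droplet protein that is not an oleosin, went from 18.9 and 8.24 to 1945 and 1047, at least 88.2-fold (limma adjusted p = 0.00208). The oleosin-listed loci AT3G18570 and AT2G25890 rose at least 35.2-fold and at least 13.6-fold (limma adjusted p = 0.00583 and 0.0403). AT2G25890 no longer passed when control replicate 2 was left out (log2 change 3.94 in place of 5.58, limma adjusted p = 0.105) or when LEC1 induced replicate 1 was (4.61, limma adjusted p = 0.0596). Over all 13 alternatives its adjusted p ranged from 0.000592 to 0.105.

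**Figure D4:**
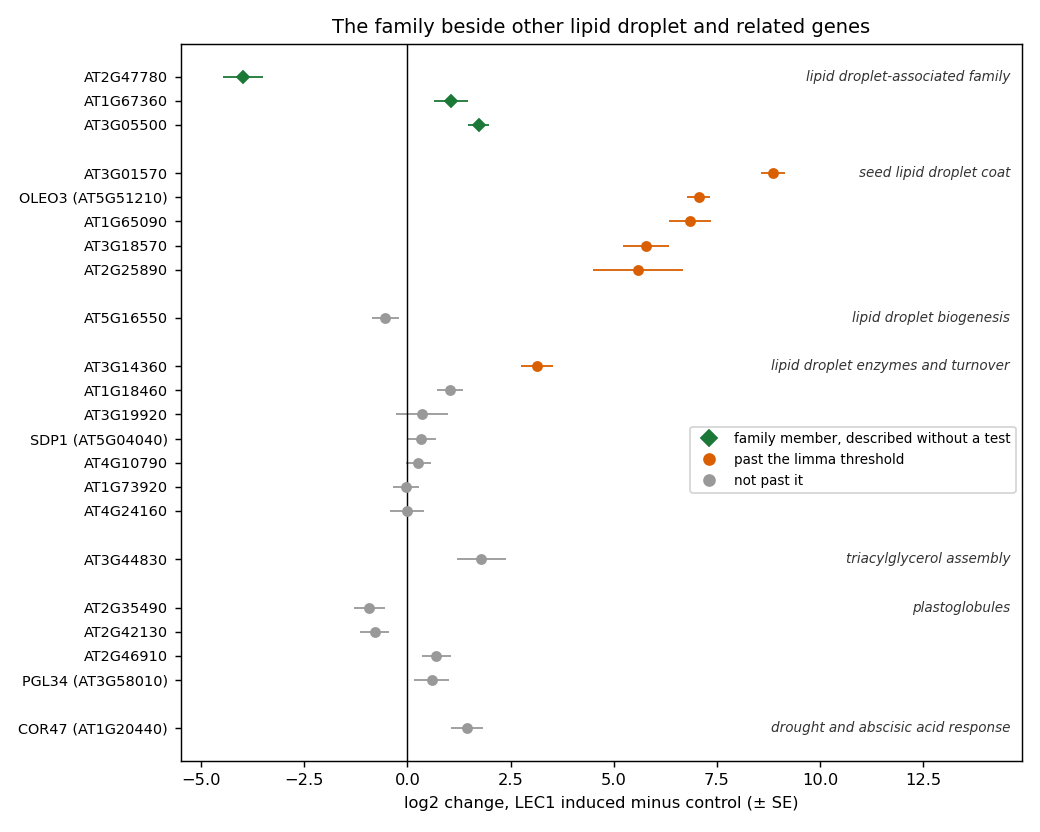
log2 change, LEC1 induced minus control, with bars of ± 1 SE, for the 3 family members (green diamonds) and all measured genes of 6 lists of lipid droplet and related genes, orange where past the limma threshold and grey otherwise. All 5 coat genes of seed droplets lie at 5.58 or above, while AT2G47780 lies at -3.98, AT1G67360 at 1.05 and AT3G05500 at 1.72. Changes of genes with a control array under the dim limit rest on dim signals and are not the lower bounds given in the text.

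Genes that help to build droplets were seldom measured. AT5G16550, listed as the partner protein that lipid droplet-associated proteins bind on new droplets, had signals of 125.1 and 99.3 in controls and 85.2 and 68.9 after induction. Its difference of -0.54 ± 0.33 SE was not past the threshold (limma adjusted p = 0.332), and without normalization its change was 0.04, below the median shift of 0.62. AT5G16460, listed as a seipin, a protein of the membrane neck where droplets bud, was under the filter, with deposited signals of 1.1 and 0.2 in controls and 60.6 and 10 after induction. No fold is given for it, since its control signals were close to 0.

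Among enzymes and turnover factors of droplets, 7 of 13 listed loci were measured and 1 rose, with 0 of 7 in the methods' t-test and 2 of 7 at an unadjusted p under 0.05 in limma. Over all 14433 probe sets tested, 2.83% rose and 3821 were at that unadjusted level, so nothing is read from these counts. AT3G14360, listed as an oil body lipase, had signals of 34.0 and 20.1 in controls and 262.1 and 202.6 after induction, 8.82-fold higher (limma adjusted p = 0.0122). Its call was lost without control replicate 2 (log2 change 2.73 in place of 3.14, limma adjusted p = 0.0903), and over all 13 alternatives the adjusted p ranged from 0.00126 to 0.0903. The other 6 had log2 changes from -0.04 to 1.03, and the median of the 7 was 0.34. SDP1, the main lipase of stored oil in germinating seeds, was at 64.7 and 40.6 in controls and 65.7 and 63.6 after induction, so control replicate 1 lay between the induced arrays (log2 change 0.34 ± 0.35 SE, limma adjusted p = 0.574). AT3G57140 (SDP1-LIKE), AT1G23240 and AT1G23250, of which the latter pair is listed as caleosins of other tissues, were under the filter, with deposited signals up to 21.1.

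In the remaining 3 lists 0 of 6 measured genes passed the limma threshold, with 3 of 6 at an unadjusted p under 0.05 and 0 in the methods' t-test. Over all 14433 probe sets tested, 5.74% passed the threshold and 3821 were at that unadjusted level. Of 15 loci of triacylglycerol assembly only AT3G44830 was measured, listed as an acyltransferase of oil synthesis, at 5.49 and 12.0 in controls and 31.8 and 24.9 after induction (limma adjusted p = 0.119). In plastoglobules, the lipid particles of plastids with coat proteins of their own, 4 of 13 loci were measured, with log2 changes from -0.92 to 0.70. The brightest, AT2G35490, listed as a fibrillin, was at 395.5 and 444.6 in controls and 163.6 and 298.7 after induction (limma adjusted p = 0.180). Without LEC1 induced replicate 2 it passed (log2 change -1.38 in place of -0.92, limma adjusted p = 0.0311), over a range of 0.0311 to 0.505 in 13 alternatives.

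Transcripts of lipid droplet-associated proteins are known to rise in drought, so drought and abscisic acid response genes were listed as well. Of 25 loci the annotation used here gave 3 a probe set naming them alone, and 1 was measured. The signals of the loci without one are unknown here. COR47, a dehydrin, had signals of 776.1 and 458.3 in controls and 2146 and 1207 after induction (log2 change 1.43 ± 0.39 SE, limma adjusted p = 0.0842). Its groups did not overlap, as was so for 58.3% of all probe sets, so nothing is read from that. Over 13 alternatives its change ranged from 0.75 under median centring (limma adjusted p = 0.264) to 1.86 without LEC1 induced replicate 2. COR15A and COR15B were under the filter on all arrays, with deposited signals of at most 10.8.

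Loci with the most similar profile were sought among 7721 probe sets naming 1 gene, by the root mean square distance of log2 signals over the 4 arrays, each profile first centred on its own mean. For AT2G47780 the nearest were AT4G34950, SP1L2 and AT3G50570, at distances of 0.08, 0.10 and 0.40. AT4G34950 had signals of 397.5 and 270.2 in controls and 14.8 and 30.5 after induction, and the induced signals of the other two were under the dim limit. For AT1G67360 the nearest were AT3G44280, Hop2 and AT1G34770, and for AT3G05500 they were AT3G04980, AT4G00270 and AT4G32290, all within 0.12. Of these, AT3G04980 was under the dim limit on both control arrays, at 6.16 and 4.46, and AT1G34770 on 1, at 8.39. With median centring or without normalization 2 of the 3 loci nearest to AT2G47780 were found again, and 0 of 3 for each of the other members. With an offset added to the signals, 1 of 3 was found again for AT2G47780, 1 for AT1G67360 and 0 for AT3G05500. Profiles over 4 arrays are a description only.

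Neighbouring genes were also looked up, a step chosen after the values of the 3 loci were known. In the gene order of assembly TAIR10.1, the protein-coding neighbour AT1G67350 of AT1G67360 differed by 0.02 ± 0.32 SE (limma adjusted p = 0.971). The neighbour AT3G05510 of AT3G05500 differed by 0.20 ± 0.40 SE (limma adjusted p = 0.782). The other neighbours of the family, including TSPO beside AT2G47780, are not analysed here.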

How the data were processed

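Each array was deposited as 1 linear signal intensity per probe set, and the submitters' processing notes name MAS5. The scaling target is not given in the sources used here, and no detection calls were used. The 64 array controls were left out of 22810 probe sets, 8 values under 0.1 were set to 0.1, and log2 signals were quantile normalized. Probe sets above the 40th percentile of their array in at least 2 arrays were kept (14433). The test was limma 3.58.1 in R 4.3.3 (lmFit, eBayes with trend), two-sided, on all 4 arrays, with p-values adjusted by Benjamini-Hochberg across the kept probe sets, after a check on simulated data. If any array in the dimmer group lay under the dim limit, a fold is a lower bound, with such signals set to the limit. The p-value printed beside such a bound is from the fit without that step.

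Genes were named from a platform annotation, updated through the gene table of TAIR10.1 (13436 of 13513 probe sets matched), and roles of listed loci are background knowledge. A list's gene is represented by its brightest kept probe set that names it alone. Most listed genes that were not measured had no probe set naming them alone, and the others were under the filter. The annotation named no gene for 8730 of the 22746 probe sets that are not array controls. Named were all members, up to 6 called genes of each list or else its brightest, and the 3 nearest profiles per member. SDP1, the genes under the filter and the neighbouring genes were named after their values were seen. The members and lists were chosen with earlier results of these data known. Only 2 arrays per group limit the precision. Gene coordinates and promoter motifs are not analysed here.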

Additional observations from a re-analysis of the deposited data

How the results depend on the processing

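All 3 loci kept their sign under 13 alternatives (scaling, filter, offset, variance prior, replicate block, dim limit and each array left out). The change of AT3G05500 was 0.967 under median centring, and with an array left out it ranged from 1.44 to 1.93. For AT2G47780 that range was -4.65 to -3.51 and for AT1G67360 0.487 to 1.57. AT5G16550 turned from -0.54 to 0.042 without normalization, and the root marker AT3G54580 from -1.31 to 0.366 without LEC1 induced replicate 1 and to -3.03 without LEC1 induced replicate 2. The cause was not tested.

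Over all probe sets 408 rose and 420 fell, against 494 and 97 without normalization, 447 and 962 under median centring, and 233 and 148 where the variance prior had no trend. With an array left out, 141 to 700 rose and 6 to 1103 fell. The submitters' text names a t-test at a false discovery rate of 0.2, and the methods' t-test on the same values called 396 probe sets, or 2 at 0.05. With the replicate number as a block 1178 rose and 1405 fell, including all 828 called without it, and among the listed genes named here COR47 and the leaf marker RCA then passed (limma adjusted p = 0.0104 and 0.0140). Same-numbered arrays deviated together (r = 0.311 across probe sets, 2 pairs). The labels give them only a number in common, so whether they also shared a batch cannot be told. AT2G25890 was also not called without the filter, with a robust prior or without a trend (limma adjusted p = 0.0534, 0.0542 and 0.0773), and the seed marker AT3G17520 not without control replicate 2 (0.0786). RCA also passed under median centring (0.0238) and without LEC1 induced replicate 1 or 2 (0.0451 and 0.00473). Signals near the dim limit restrict the folds of 4 of the 5 coat genes to bounds.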
